A study of Mus musculus with 4 samples.

Results

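The genes described here encode the proteins of the mitochondrial ribosome. The data are peaks at them from chromatin immunoprecipitation of Deaf1, a DNA-binding transcription factor of the SAND-domain family. The members were all protein-coding RefSeq genes of mouse chromosomes 1 to 19 and X whose symbol starts with Mrpl or Mrps followed by a digit. There were 78 of 21631 such genes, 49 with an Mrpl symbol (large subunit) and 29 with an Mrps symbol (small subunit). Chromatin immunoprecipitation with an antibody against Deaf1 and sequencing was done in 2 replicates of C2C12 cells, an immortalised mouse myoblast line that fuses into contractile myotubes in culture. The labels call the cells myocytes and the series' description calls them differentiated myoblasts, and they name no treatment, genotype or time. The 4 samples also include 2 of input chromatin, and a control IgG is mentioned, but neither was analysed here, and there was no second condition to compare. The peak list of replicate 1 held 65606 peaks and that of replicate 2 held 26503, read depths are not given in these files, and nothing says that the replicates were separate cultures, so differences between them may be technical.

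A member was called occupied when both peak lists had a summit, the highest point of a peak, within 1 kb of the same end of the gene's span. Spans were those of RefSeq in GRCm38.p6, the assembly behind mm10, and take in the predicted models. The strength given is the authors' fold enrichment, the fragments at a summit over the local background. It describes a peak within its own list. Without control peaks, Deaf1 binding and signal that any open promoter gives cannot be told apart. Of 9 myocyte marker genes 5 were occupied (55.6%, beside 51.6% of all protein-coding genes), and of 8 markers of other cell types 2 were. A peak does not measure expression, so the cell label could not be checked from these lists.

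Mitochondria carry their own ribosomes, which make the few proteins encoded in mitochondrial DNA, all of them subunits of the respiratory chain and ATP synthase. The ribosomal RNAs come from mitochondrial DNA, while every ribosomal protein is encoded in the nucleus, made in the cytosol and imported. Many of the proteins have bacterial counterparts, and others exist only in mitochondria. Muscle has a high demand for oxidative metabolism, and NRF1, GABPA and YY1 are the transcription factors best known for control of nuclear genes of mitochondria.

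Deaf1 peaks stood at the ends of most mitochondrial ribosomal protein genes in both replicates. Of the 78 members 59 (75.6%) were occupied, where 51.6% of all protein-coding genes were. The large subunit had 36 of 49 (73.5%) and the small subunit 23 of 29 (79.3%). Taking each list by itself, 68 members (87.2%) had a replicate 1 summit within 1 kb of an end, against 61.8% of all coding genes. A replicate 2 summit was there in 59 members, against 52.3% of all coding genes. Each member with a replicate 2 summit thus also had one of replicate 1, 9 of 78 members had one in replicate 1 only, and 10 had none in either list. Over all 21631 coding genes, 2167 had one in replicate 1 only and 8156 had none in either list. The occupied share above the all-gene level is set beside the CG content of the promoters further on, where it is no longer seen.

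The peaks at these genes were of middle to low strength. At the occupied large subunit genes the highest peak had a median fold of 12.8 in replicate 1 (range 2.94 to 25.2) and 9.84 in replicate 2 (range 2.60 to 24.3). At the occupied small subunit genes the medians were 16.7 (range 3.20 to 26.8) and 12.9 (range 3.16 to 25.4). Over all 11164 occupied coding genes the medians were 16.4 (quartiles 12.1 and 21.1) and 15.2 (9.48 and 22.0). Only 6 of the 59 (10.2%) had a fold of 20 or more in both lists, where 22.1% of all occupied genes did. Of the occupied cytosolic ribosomal protein genes 10% did. The members were therefore occupied at a higher rate than coding genes in general, while in replicate 2 their median fold lay below that of all occupied genes for both subunits. In replicate 1 the small subunit median lay at the level of all occupied genes. Recovered summit pileups (fragments covering the summit) had a median of 52 in replicate 1 and 35 in replicate 2 for the large subunit, and of 63 and 38 for the small subunit.

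**Figure D1:**
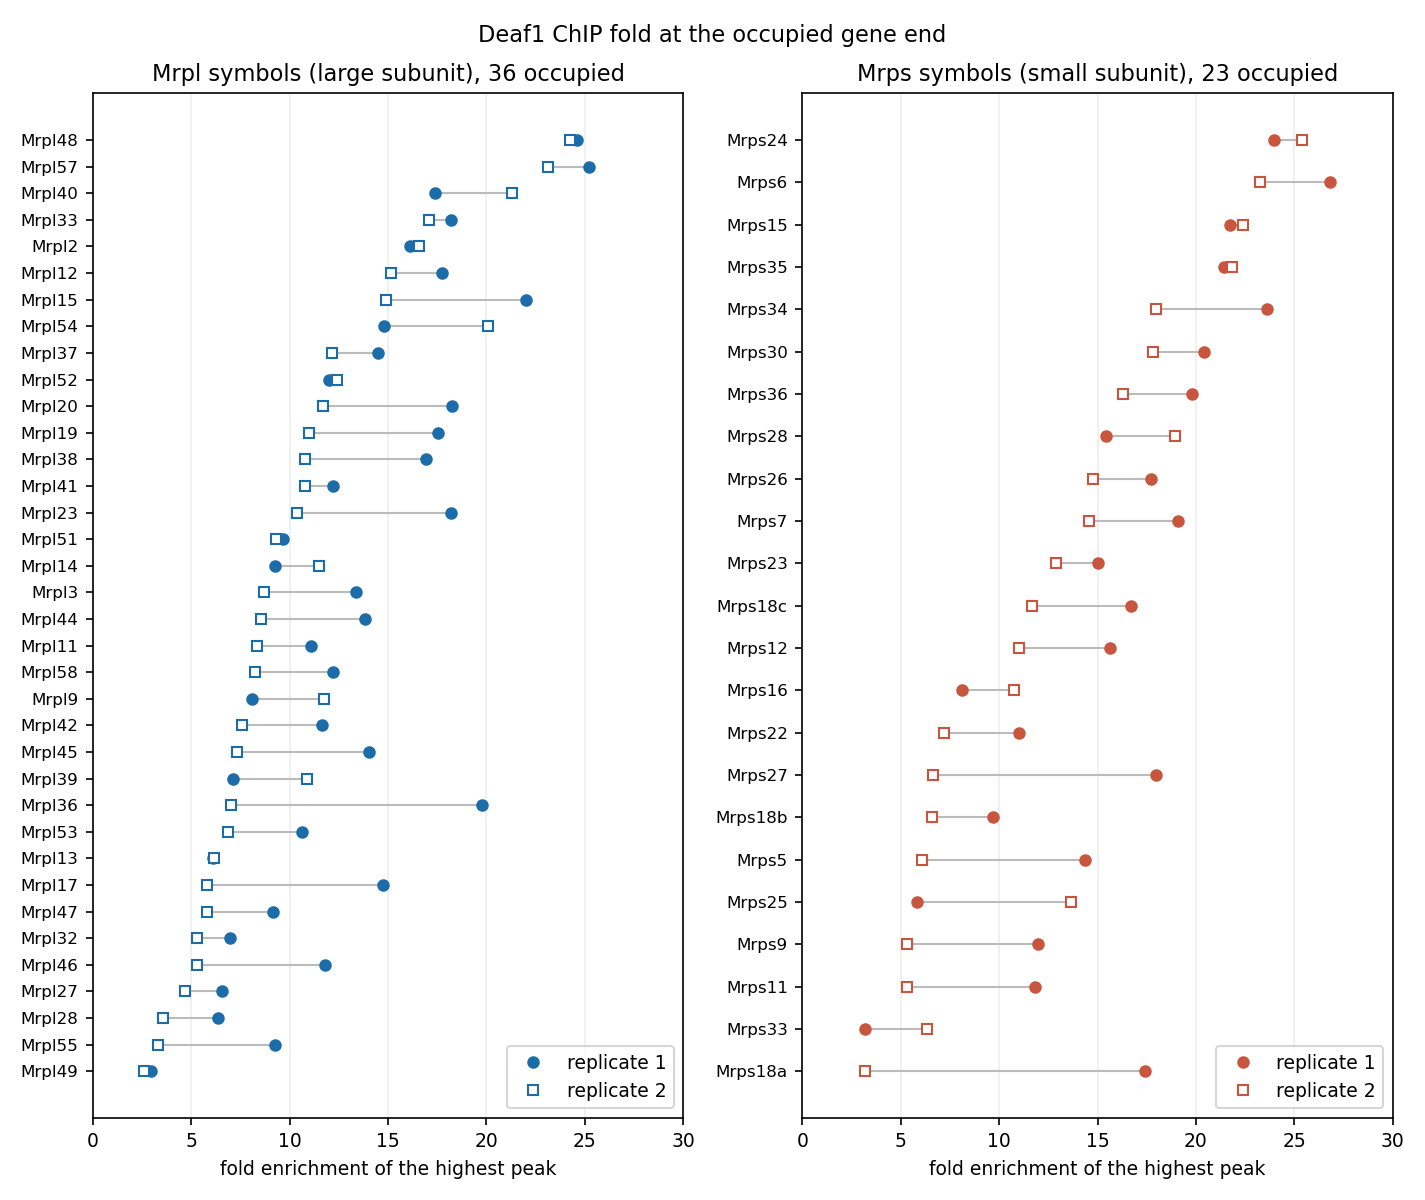
Fold enrichment (x axis) of the highest peak at the occupied end of each occupied member, replicate 1 as filled circles and replicate 2 as open squares, with the 36 Mrpl genes on the left and the 23 Mrps genes on the right, ordered by the lower fold. Folds ran from below 4 at Mrpl49, Mrpl55, Mrpl28, Mrps18a and Mrps33, in one replicate or both, to above 20 in both at Mrpl48, Mrpl57, Mrps24, Mrps6, Mrps15 and Mrps35.

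Within the large subunit the 3 highest lower-of-2 folds stood at genes of proteins that bacteria lack. Mrpl48, at its upper end on chromosome 7 (span 100545779 to 100608301), gave folds of 24.6 (replicate 1) and 24.3 (replicate 2), with pileups of 76 (95% exact Poisson interval 59.9 to 95.1) and 63 (48.4 to 80.6). These intervals cover counting error only. Its summits were 45 bp apart, and Rab6a, the gene of a Golgi GTPase, reaches the same peak. Mrpl57, on chromosome 14 (57826228 to 57829087), had 25.2 and 23.1, with pileups of 78 and 60, at a peak shared with Ska3, a gene of chromosome segregation. Mrpl40 had 17.4 and 21.3, at summits 667 bp outside its upper end where the histone chaperone gene Hira begins. Mrpl54 had 14.8 and 20.1. In the first 3 of these genes the peak is thus shared with a neighbour, and Mrpl54 shares its own with Apba3, so none of the 4 can be credited with the peak alone.

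Among large subunit genes with a bacterial counterpart, Mrpl33 had the highest lower fold (18.2 and 17.1 in replicates 1 and 2). Its summits were 1 bp apart, 126 and 125 bp inside the gene, with no other coding gene in reach. Mrpl15 had 22.0 and 14.9, 117 and 129 bp inside. Mrpl12, which encodes the stalk protein that contacts translation factors, had 17.7 and 15.2, 111 and 118 bp inside, at a peak that Hgs also reaches. Mrpl11, of the base of the stalk, had 11.1 and 8.34, while Mrpl10, its partner there, was not occupied. Its replicate 1 peak had a fold of 7.90, 84 bp inside, and replicate 2 had no summit nearer than 7701 bp. The stalk genes thus spanned strong peaks in both lists, weaker ones and a peak of 1 list only. Mrpl3, whose protein lies near the catalytic centre, had 13.4 and 8.72. Of the proteins around the exit tunnel for the new peptide, Mrpl23 had 18.2 and 10.4, whereas Mrpl4, Mrpl22 and Mrpl24 were not occupied. Genes of the tunnel wall were therefore not occupied alike. Mrpl45, Mrpl58 and Mrpl44, by contrast, were classed as mitochondrial only. Mrpl45, of the membrane-facing tunnel exit, had 14.1 and 7.33. Mrpl58, a peptidyl-tRNA hydrolase built into the large subunit, had 12.2 and 8.24, and Mrpl44, whose protein resembles RNase III, had 13.8 and 8.53 at a peak also near Wdfy1.

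In the small subunit Mrps24, the counterpart of a bacterial protein at the messenger RNA entry, had the highest lower fold of its subunit. On chromosome 11 (5703982 to 5707701) its folds were 23.9 in replicate 1 and 25.4 in replicate 2, with pileups of 74 (58.1 to 92.9) and 66 (51.0 to 84.0) and summits 129 and 118 bp inside. Mrps6, on chromosome 16 (92058336 to 92112227), had 26.8 and 23.3 with pileups of 90 and 63. Its end lies beside that of Slc5a3, the gene of an inositol transporter. Mrps15 had 21.7 and 22.4, 160 and 155 bp inside, and Mrps35 had 21.4 and 21.8, 161 and 148 bp inside, each with no other coding gene in reach. Both lists thus gave each of these 4 genes a fold above 20. Mrps36 had 19.8 and 16.3 and Mrps28 had 15.4 and 18.95. Mrps36 carries a ribosomal name, but its product is now described as a part of the 2-oxoglutarate dehydrogenase complex.

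Several small subunit genes encode proteins of a known place or history. Mrps12, of the decoding centre, was occupied at both ends. At its start, shared with the gene Sars2 of the mitochondrial seryl-tRNA synthetase, the folds were 11.5 and 8.34, and inside its other end they were 15.6 and 11.0. Mrps7, of the head of the subunit, had 19.1 and 14.6, with the highest summits of the lists 536 bp apart, beside the adaptor gene Gga3. Mrps5, a gene linked to mouse lifespan, had 14.4 and 6.07, at a peak that Zfp661 also reaches. Replicate 1 had the higher fold at these 3 genes. Mrps16 had 8.10 and 10.8, beside Cfap70, and Mrps22 had 11.0 and 7.21. Of the 3 paralogs of bacterial protein S18, Mrps18c had 16.7 and 11.7, Mrps18b had 9.67 and 6.58, and Mrps18a had 17.4 and 3.16. Replicate 1 was the higher at all 3 paralogs. Mrps18a and Mrps30 are named for the small subunit, though structures place their proteins in the large one. Mrps30 had 20.4 and 17.8, 135 and 123 bp inside.

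The remaining occupied members lay between these and the weakest. Mrpl19 (17.6 and 11.0), Mrpl37 (14.5 and 12.1) and Mrpl52 (11.98 and 12.4) had folds above 10 in both lists, as did Mrps26 (17.7 and 14.8). Mrpl17 had 14.7 and 5.81 at summits 294 bp apart, and Mrpl42 had 11.6 and 7.59. The next genes had at least 1 fold below 10. Mrpl14, beside Tmem63b, had 9.27 and 11.5, and Mrpl51, beside Ncapd2, had 9.67 and 9.33. Mrpl13, beside Mtbp, had 6.13 and 6.15, and Mrpl27, beside Eme1, had 6.59 and 4.69.

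The weakest occupied members lay near the floor of the lists. Mrpl49 had folds of 2.94 and 2.60, with pileups of 49 (36.3 to 64.8) and 41 (29.4 to 55.6). The local background there was 16.03 and 15.2 fragments, the highest of any occupied member in either list. Mrpl55 had 9.26 and 3.29, with pileups of 28 and 13, and Mrpl28 had 6.34 and 3.58. Mrps33 had 3.20 and 6.33, with a background of 8.68 in replicate 1 and 2.00 in replicate 2. Mrps9 had 11.99 and 5.31, and Mrps11 had 11.8 and 5.31, the lowest lower folds of the small subunit after Mrps18a and Mrps33. A low fold at these genes therefore goes with few fragments at Mrpl55 in replicate 2, over a background of 3.25. At Mrps9 and Mrps11 the replicate 2 pileup was also 13, over the lowest background of that list, 1.64. At Mrpl49 and, in replicate 1, at Mrps33 a low fold goes with a raised background.

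The replicates ordered the members alike only in part. Over the 59 occupied members, which are genes and not independent replicates, the folds of the lists had a Spearman rho of 0.684, against 0.780 over all occupied genes. Replicate 1 was the higher in 44 members (74.6%), where it was so in 59.3% of all occupied genes. In the occupied cytosolic ribosomal protein genes it was the higher in 76.7%. The widest gap was at Mrps18a, where pileups of 63 (48.4 to 80.6) and 21 (13.0 to 32.1) stood over backgrounds of 2.67 and 5.96 fragments, at summits 3 bp apart. Mrpl36 had 19.8 and 7.01, Mrpl55 the values above, and Mrps27, which encodes an RNA-binding protein of the pentatricopeptide type, 17.97 and 6.63. Replicate 2 was the higher at Mrps25 with 5.85 and 13.7, at Mrps33, at Mrpl39 with 7.13 and 10.9 and at Mrpl9 with 8.11 and 11.8. At Mrps25 the pileups were 40 and 35 and the backgrounds 6.01 and 1.64, so the pileups were close and the backgrounds apart.

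**Figure D2:**
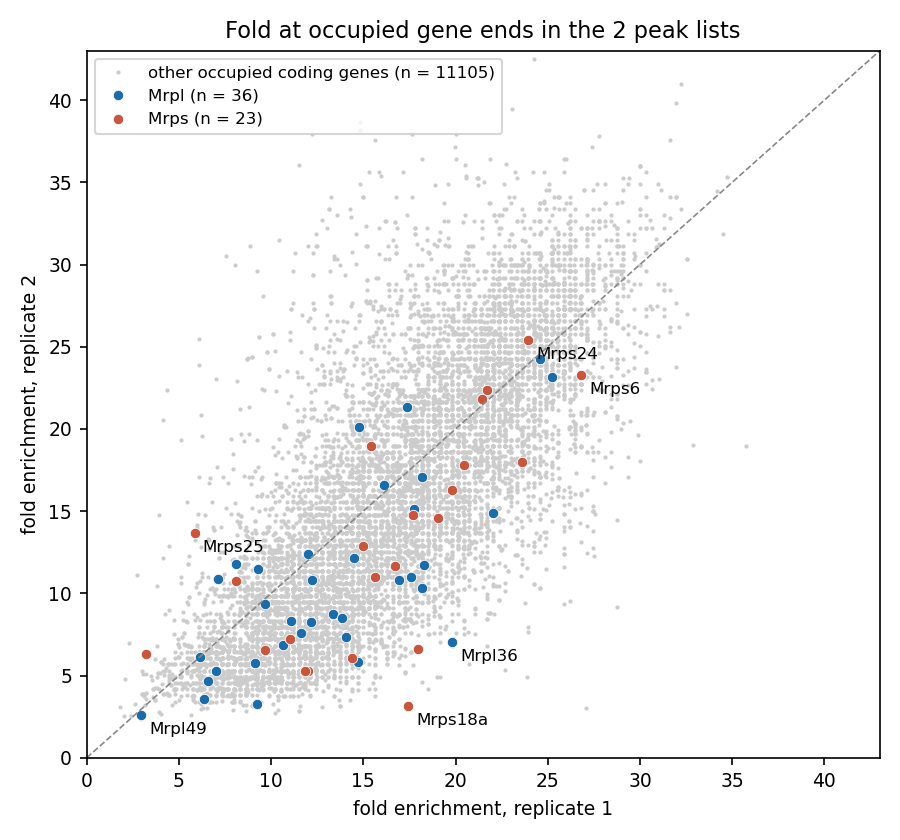
Fold enrichment at the occupied end in replicate 1 (x axis) against replicate 2 (y axis), with Mrpl genes in blue (n = 36), Mrps genes in red (n = 23) and the other occupied coding genes in grey; the dashed line marks equal folds. Of the 59 members, 44 lie below the line, and Mrps18a (17.4 and 3.16) lies farthest from it.

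Members of both subunits classed as existing only in mitochondria had a peak more often by count than those classed with a bacterial counterpart. Of the 30 members classed as mitochondrial only 27 (90.0%) were occupied, and of the 48 with a bacterial counterpart 32 (66.7%). Mrpl44, Mrpl58 and Mrps36, whose products were described above as RNase III-like, a hydrolase and a part of another complex, are counted among the 27. Within the large subunit these numbers were 17 of 19 and 19 of 30, and within the small subunit 10 of 11 and 13 of 18. The median folds of the occupied genes were close, 14.1 and 10.9 for the first class and 15.1 and 10.6 for the second. The classes were assigned from textbook knowledge after the values had been seen, and the difference was not tested. The occupied shares of 90.0% and 66.7% stand beside 51.6% of all protein-coding genes, and were not matched for CG content. Their gap also depends on the window. Mrpl4, Mrpl18, Mrpl22 and Mrpl34, gained at 2 kb, and Mrpl24 and Mrps2, gained besides these at 5 kb, all have a bacterial counterpart.

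Of the 19 members not occupied, 13 were of the large and 6 of the small subunit. Replicate 1 alone had a summit within 1 kb of an end of Mrpl10, Mrpl21, Mrpl24, Mrpl34, Mrpl50, Mrps2, Mrps10, Mrps14 and Mrps17. The highest of these was at Mrpl34 with a fold of 10.9, 348 bp inside, where the nearest replicate 2 summit lay 1418 bp outside the other end with a fold of 18.6. At Mrps14 the replicate 1 fold was 7.34, and the nearest replicate 2 summit lay 11511 bp away. At Mrpl50 it was 5.53, with replicate 2 at a distance of 76403 bp. In replicate 1 Mrps17 had 3.28 and Mrpl24 4.09, and Mrpl21 had 2 peaks, the higher with 5.79. The Mrps10 gene had a replicate 1 summit at each end, with folds of 7.39 and 8.94. These replicate 1 peaks are mostly weak, below the replicate 1 median of either subunit in every one of the 9.

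Neither list had a summit within 1 kb of Mrpl1, Mrpl4, Mrpl16, Mrpl18, Mrpl22, Mrpl30, Mrpl35, Mrpl43, Mrps21 or Mrps31. For some of these genes the nearest peaks were far away and for others just past the limit. Around Mrpl1 and Mrpl16 the nearest summits of both lists lay more than 40 kb off, at 47587 and 47594 bp for Mrpl1 and 43818 and 43936 bp for Mrpl16. For Mrpl30 they lay 18175 and 25499 bp away. Mrps21 had none nearer than 6919 and 6730 bp, and Mrpl35 none nearer than 7371 and 7609 bp. Mrps31 had its nearest summits at 1128 and 11967 bp, and Mrpl43 at 3284 and 15721 bp. Near Mrpl22 a strong peak with folds of 27.8 and 30.3 lay 1650 and 1656 bp before its lower end. Mrpl4 had folds of 6.45 and 4.42 at 1733 and 1754 bp inside. The members nearest the 1 kb limit were Mrpl20, just inside it with its farther summit 870 bp from the end, and Mrpl18, just outside with its farther summit at 1299 bp.

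The counts moved with the rule and the members' share stayed above that of all coding genes under each of those below. Within 500 bp 51 members were occupied, within 2 kb 63 (all genes 56.4%) and within 5 kb 65 (all genes 61.1%). With a fold of 5 or more asked of both peaks 53 were (all genes 48.8%), and with a −log10 q of 5 or more 56 (all genes 50.1%). With replicate 1 cut by p-value to as many peaks as replicate 2 has, 57 were (all genes 50.3%). With summits allowed at different ends of a gene the count was 59 (all genes 51.8%).

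Part of these calls follows from where the RefSeq span ends. A transcription start was listed for 69 of the 78 members, and within 1 kb of a listed start both lists had a summit at 51 of them (73.9%), against 54.0% of the 17274 coding genes with one. By this rule Mrps2 was occupied, with folds of 19.2 and 13.3 at summits 81 and 42 bp downstream of its start, which lies inside a longer span. Mrpl18 was occupied too, with 10.5 and 8.19 at 397 and 591 bp upstream. Mrpl2 and Mrps23 were not. The Mrpl2 peak, with folds of 16.1 and 16.6, lies beyond the gene's finish, beside the start of the ubiquitin ligase gene Cul7, and only replicate 1 had a summit at the Mrpl2 start, with a fold of 4.56. The Mrps23 peak, with folds of 15.01 and 12.9, lies at the end of the span that Cuedc1 also reaches, 10514 and 10519 bp from the listed start. At that start replicate 1 alone had a summit, with a fold of 10.9. At Mrpl36 the strongest shared peak of the span end is also that of Ndufs6, a complex I gene, while its own start had folds of 21.1 and 8.21 at 134 and 122 bp downstream.

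**Figure D3:**
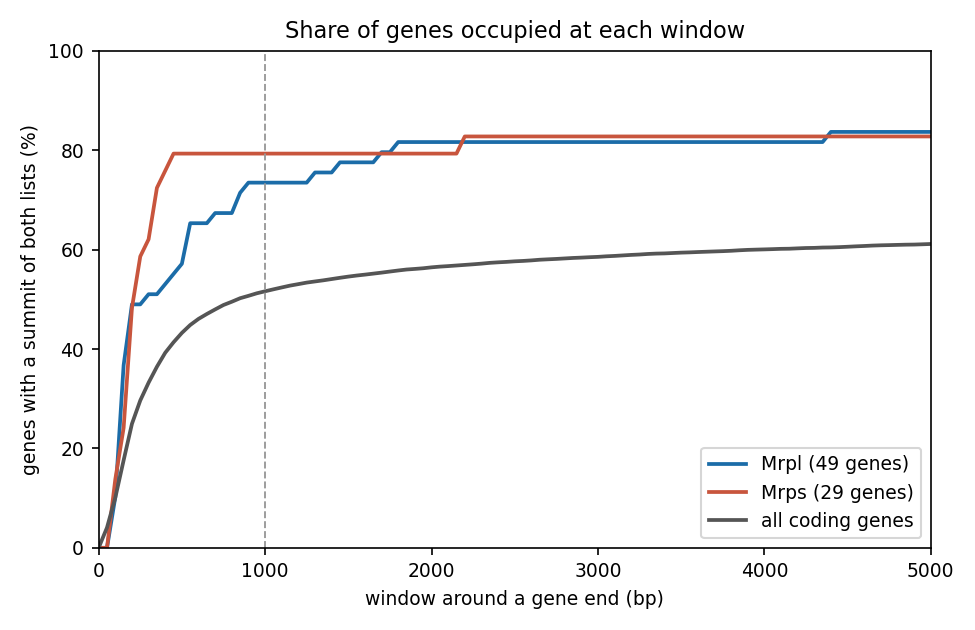
Share of genes (y axis, percent) with a summit of both lists within a given distance of the same end (x axis, bp), for the 49 Mrpl genes (blue), the 29 Mrps genes (red) and all coding genes (grey); the dashed line marks 1 kb. Both member curves lie above the grey one at 500 bp and beyond, with 57.1% of Mrpl, 79.3% of Mrps and 43.2% of all genes at 500 bp.

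The summits lay close to the start of transcription. Of the 51 occupied members with a known strand, 47 (92.2%) had both highest summits within 1 kb of a listed start. So did 7942 of the 8853 occupied coding genes with a known strand (89.7%). In the 47 members the median position was 94 bp downstream of the start in replicate 1 and 100 bp in replicate 2. Over the 7942 occupied coding genes with both summits this near a listed start, it was 98 and 91 bp. Both summits lay between 50 and 200 bp downstream in 22 of the 47 members (46.8%), and in 28.9% of those 7942 genes. Among cytosolic ribosomal protein genes with both summits this near a listed start, 18 of 42 (42.9%) had them in that band. Of the 47 members, 13 had both summits upstream, as did 1933 of those 7942 genes. Each of these 13 peaks, with Mrpl40, Mrpl51, Mrpl47 and Mrps18c among them, is also within 1 kb of a neighbour's end. At Mrpl20, with folds of 18.3 and 11.7, the summits lay 829 and 870 bp downstream, the farthest of the 47. The summits of the lists were within 100 bp of each other in 48 of the 59 occupied members (81.4%), and in 79.0% of all occupied genes.

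**Figure D4:**
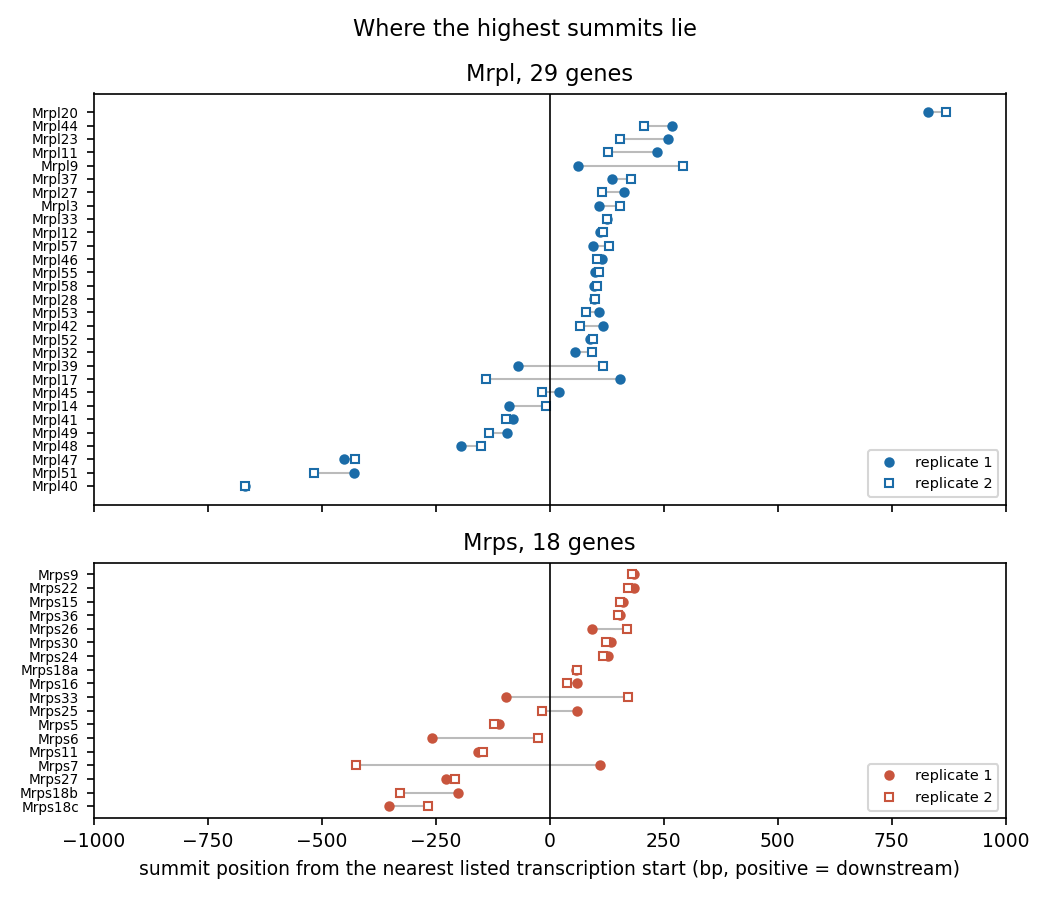
Position of the highest summit of each list from the nearest listed transcription start (x axis, bp, positive downstream) for the 29 Mrpl genes (top) and 18 Mrps genes (bottom) with both summits within 1 kb of a start; filled circles are replicate 1 and open squares replicate 2. In 22 of the 47 genes both summits lie 50 to 200 bp downstream, and Mrpl40 (667 bp upstream) and Mrpl20 (829 and 870 bp downstream) lie farthest out.

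Many of these peaks belong to gene pairs. Of the 59 occupied members 29 (49.2%) had another coding gene whose end was within 1 kb of both summits, against 22.9% of all occupied genes. The members lie close to other genes whatever the peaks, since 44 of 78 (56.4%) had another coding gene's end within 1 kb, against 25.1% of all coding genes. Of the members with such a neighbour 34 (77.3%) were occupied, and of the 34 without one 25 (73.5%) were. The subunits went in opposite directions. In the large subunit 21 of 30 with a neighbour (70.0%) and 15 of 19 without (78.9%) were occupied, and in the small subunit 13 of 14 (92.9%) and 10 of 15 (66.7%). This difference was not tested. Over all coding genes 71.6% of those with a neighbour and 44.9% of those without were occupied. Mrps11 and Mrpl46, a gene of each subunit, form a head-to-head pair on chromosome 7 with 41 bases between their starts (78783131 and 78783089). They share a single peak with folds of 11.8 and 5.31, 114 and 104 bp inside Mrpl46. The neighbours at the other shared peaks were of many kinds, Rab6a, Hira and Slc5a3 among them. A few, picked out after they were seen, belong to mitochondria, the proteasome or cytosolic ribosomes. Among these were the complex I genes Ndufb5 (with Mrpl47, folds of 9.15 and 5.80) and Ndufs6 (with Mrpl36), the proteasome gene Psma2 (with Mrpl32, 6.99 and 5.31) and Fau, the gene of a cytosolic ribosomal protein (with Mrpl49). Mrps27 shares its peak with Ptcd2, a gene of mitochondrial RNA processing. A shared peak cannot be assigned to either gene from these data.

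Both ends were occupied in 5 of the 59 occupied members, and in 893 of the 11164 occupied coding genes. In few of the 5 members were these separate, well-placed peaks. Mrpl53 is 825 bp long, so 1 peak with folds of 10.6 and 6.89 served both ends. In Mrps34, which is 1170 bp long, replicate 2 had its highest summit, with a fold of 17.99, in reach of both ends, and replicate 1 had different summits with 11.7 at the lower and 23.6 at the upper end. Mrps18b had 9.67 and 6.58 at its start and 11.6 and 6.07 beyond its finish. Mrpl38 had 16.9 and 10.8 at its upper end and 5.75 and 5.31 at its lower end, where the summits of the lists lay on different sides of the end. Mrps12 is described above.

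The promoters of the members were then read for short sequences, since Deaf1 is known to bind TTCG half-sites. RefSeq promoters of GRCm38.p6, running from 250 bases before to 50 after the start, were matched by gene identifier for 69 of the 78 members, and the outermost was used where several were listed. Below are stretches before the start, 5′ to 3′ on the gene's strand, with TTCG or its reverse complement CGAA in capitals. Mrps5, Mrpl45, Mrpl49 and Mrpl41 are shown as examples whose peak summits fell in or beside the stretch, and Mrps21 because it had half-sites and no peak. Mrpl14, Mrps11 and Mrps27 also had the highest summits of both lists in their promoter window and are not shown. Their promoters held 0, 0 and 2 half-sites.
Mrps5 (chr2:127587176-127587425, plus strand): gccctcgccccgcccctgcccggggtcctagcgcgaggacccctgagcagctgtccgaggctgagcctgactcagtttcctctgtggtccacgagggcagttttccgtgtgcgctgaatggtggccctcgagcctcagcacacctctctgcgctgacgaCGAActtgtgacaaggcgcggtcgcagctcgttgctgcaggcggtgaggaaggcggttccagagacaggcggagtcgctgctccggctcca
Mrpl45 (chr11:97315466-97315715, plus strand): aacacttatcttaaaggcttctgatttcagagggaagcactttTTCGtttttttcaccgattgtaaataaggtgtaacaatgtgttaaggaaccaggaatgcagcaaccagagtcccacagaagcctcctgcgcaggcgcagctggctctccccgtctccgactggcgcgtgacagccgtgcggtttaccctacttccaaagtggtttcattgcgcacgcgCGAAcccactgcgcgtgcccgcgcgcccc
Mrpl49 (chr19:6057756-6057946, minus strand, up to the start of Fau): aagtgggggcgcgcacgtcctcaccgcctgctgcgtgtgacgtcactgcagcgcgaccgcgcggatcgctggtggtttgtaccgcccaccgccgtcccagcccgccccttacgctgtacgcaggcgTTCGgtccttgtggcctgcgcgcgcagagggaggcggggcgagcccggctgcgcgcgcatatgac
Mrpl41 (chr2:24975099-24975348, minus strand): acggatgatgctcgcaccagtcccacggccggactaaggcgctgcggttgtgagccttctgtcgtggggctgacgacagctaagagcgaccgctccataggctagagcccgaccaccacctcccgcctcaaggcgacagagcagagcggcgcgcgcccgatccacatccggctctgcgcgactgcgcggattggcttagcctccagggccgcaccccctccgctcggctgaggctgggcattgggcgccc
Mrps21 (chr3:95871515-95871764, minus strand): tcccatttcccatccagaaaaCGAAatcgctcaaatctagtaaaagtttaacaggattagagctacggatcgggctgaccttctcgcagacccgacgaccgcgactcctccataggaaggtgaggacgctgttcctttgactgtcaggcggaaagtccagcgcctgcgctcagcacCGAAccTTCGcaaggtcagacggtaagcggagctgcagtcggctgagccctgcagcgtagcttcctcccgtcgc

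In the Mrps5 stretch the only half-site begins 91 bases before the start, and the summits lie at 110 and 123 bases before it. In Mrpl45 the nearer of 2 half-sites begins 29 bases before the start, with the summits 21 bases after and 16 bases before it. In Mrpl49 the half-site begins 65 bases before the start and the summits lie 93 and 134 bases before it. The Mrpl41 stretch holds 0 half-sites although both lists had a summit in it, 80 and 95 bases before the start, with folds of 12.2 and 10.8. The Mrps21 stretch holds 3 half-sites and had no peak. Mrpl41 thus had a peak without the letters and Mrps21 the letters without a peak.

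Over all member promoters the half-site was about as common as in other occupied genes. The counted window ends 50 bases after the start, short of the median summit positions of 94 and 100 bp downstream. Among occupied members, both highest summits lay inside it only at Mrps5, Mrpl45, Mrpl49, Mrpl41, Mrpl14, Mrps11 and Mrps27. The counts therefore describe the promoter window and not the sequence under most of these peaks. TTCG on either strand stood in 42 of 69 member promoters (60.9%), in 49.4% of the 17274 coding gene promoters and in 61.0% of those of all occupied genes. It stood in 32 of 51 occupied members (62.7%) and in 10 of 18 not occupied (55.6%). The longer string TTCGG, which contains TTCG, stood in 17 of 51 occupied members (33.3%) and 2 of 18 not occupied (11.1%), against 28.6% and 15.1% of all occupied and not occupied genes. Strings of the factors known for mitochondrial genes were counted the same way. CCGGAAG, a core that ETS factors such as GABPA bind, stood in 24 of 69 member promoters (34.8%) and in 12.1% of all coding promoters, on either strand. It stood in 18 of 51 occupied (35.3%) and 6 of 18 not occupied members (33.3%), and in 16.9% of all occupied genes. AAGATGGCG, a YY1 string, stood in 8 of 69 (11.6%), in 1.92% of all and in 2.89% of all occupied genes. A palindromic NRF1 string stood in 3 of 69 (4.35%), in 1.35% of all and in 2.17% of all occupied genes. GGGCGG, an SP factor string, stood in 29 of 51 occupied members (56.9%) and 5 of 18 not occupied (27.8%), against 70.1% and 22.5% of all genes. A match to such letters is not a binding site, and no match says only that the letters are absent from this window.

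The member promoters were rich in CG dinucleotides, and TTCG itself contains one. They held a median of 21 CG in 300 bases (range 7 to 39), where all coding promoters held 14, those of all occupied genes 22 and those of genes not occupied 4. The 18 members that were not occupied held a median of 19.5, far from the 4 of other genes without a peak. In all coding genes the share occupied was 6.98% below 5 CG and 85.7% at 20 CG or more. Among promoters with 10 CG or more, 49 of 67 members (73.1%) and 78.5% of all coding genes were occupied. At 15 CG or more these shares were 41 of 54 (75.9%) and 82.9%. At 5 CG or more they were 51 of 69 (73.9%) and 68.8%. At 20 CG or more these shares were 29 of 38 members (76.3%) and 85.7%. Taking all coding genes at the CG counts of the 69 members, 75.3% would be occupied, beside the 73.9% seen. Set against promoters as rich in CG, the mitochondrial ribosomal protein genes therefore did not have a higher share than coding genes at large.

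**Figure D5:**
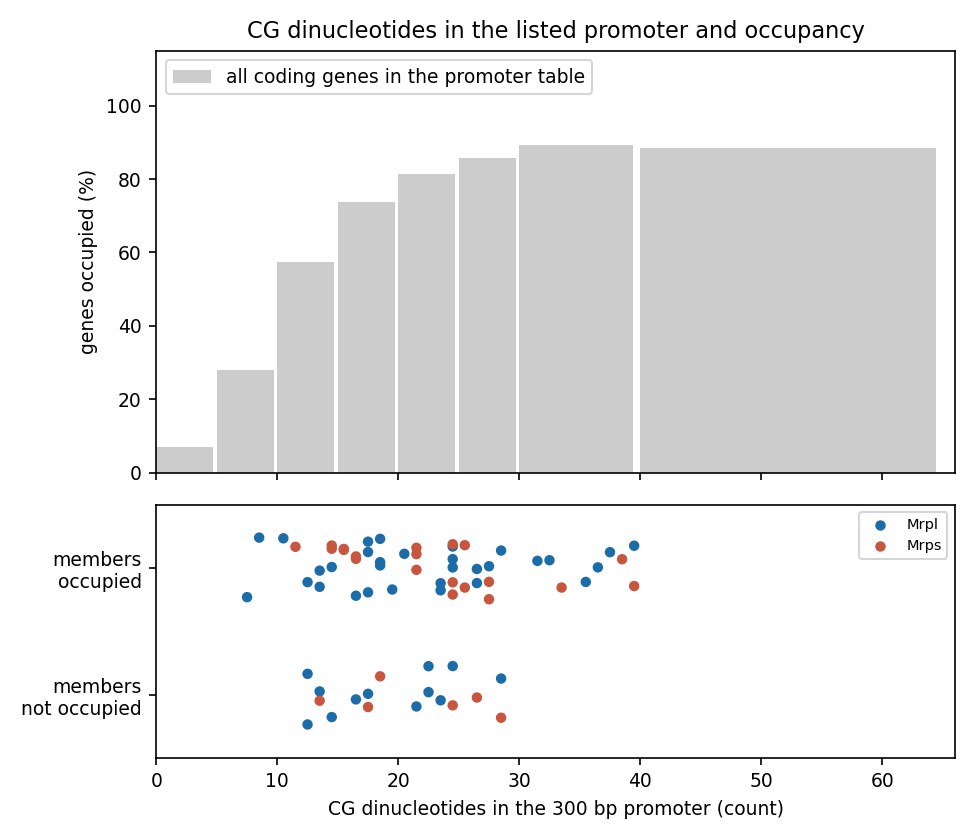
Top, share of coding genes occupied (y axis, percent) by the number of CG dinucleotides in their 300-base listed promoter (x axis, count). Bottom, the 69 members with a listed promoter at their own count, split into occupied (51) and not occupied (18), Mrpl in blue and Mrps in red with random vertical spread. The share in all genes climbs from 6.98% below 5 CG to above 80% from 20 CG, occupied members lie between 7 and 39 CG, and members not occupied between 12 and 28.

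Among other genes of mitochondrial gene expression, occupied ones were found in each list, and each count stands beside 51.6% of all protein-coding genes. Of the 5 further proteins of the mitochondrial ribosome that carry other names, 4 were occupied. Gadd45gip1 had folds of 25.6 and 22.8 at a peak shared with Dand5, Chchd1 had 18.5 and 17.4, Aurkaip1 had 8.46 and 6.30, and Ptcd3 had 6.07 and 5.69. Dap3, whose protein binds GTP in the small subunit, was not, with its farther summit 1111 bp from the nearer end. Of the translation factors 8 of 12 were occupied (66.7%), among them the elongation factor gene Tufm with 6.76 and 7.14 and its exchange factor Tsfm with 16.1 and 12.9. Gfm1, another elongation factor gene, had 14.3 and 3.53, and the initiation factor gene Mtif2 had no summit within 1 kb. Of the mitochondrial aminoacyl-tRNA synthetases 11 of 17 were occupied (64.7%), led by Iars2 with 27.5 and 26.9. Of the assembly and ribosomal RNA modification factors 12 of 23 were occupied (52.2%), a share near that of all coding genes, with Noa1 at 22.3 and 20.9. Of the genes that transcribe mitochondrial DNA 3 of 5 were occupied, namely Polrmt (19.5 and 24.3), Tfam (16.6 and 18.6) and Tfb2m (27.1 and 20.2). The peaks of Noa1, Iars2, Polrmt, Tfb2m and Ptcd3 are also in reach of a neighbouring gene. These last 4 lists together had 34 of 57 genes occupied (59.6%), and 60 of 90 cytosolic ribosomal protein genes (66.7%) were.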

How the data were processed

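The deposited data were a peak list for each of the 2 Deaf1 ChIP samples. The aligner BWA, the peak caller MACS2 and the build mm10 are named per the submitters' processing notes. Their versions and settings, and what served as the caller's control, are not stated in these sources. The fold enrichment is the ratio the authors deposited for each peak, and the −log10 p-value and q-value are also as deposited. The files give no read depth.

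Summits were set to 1-based positions and joined to RefSeq gene spans and promoters of GRCm38.p6 with Python 3.11.15, pandas 2.3.3 and NumPy 2.4.6. At each occupied end the highest peak of each list within 1 kb was taken, and of 2 occupied ends the one with the higher lower-of-2 fold. Pileup and background were solved from fold and p under a Poisson model (SciPy 1.17.1) with 1 added to each, with a largest misfit of 2.34e-05 in −log10 p. The steps were checked on simulated peaks.

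No test over samples is possible with 1 condition, so counts stand beside the same over all genes. The members, lists and comparisons were chosen with earlier results of these data known. Named were, in each subunit, the 8 highest and 3 lowest occupied members by lower fold, every member not occupied or occupied at both ends, the 4 widest gaps between lists in each direction, those at the 1 kb limit and the ribosomal proteins under other names. Other genes were named for their known role or neighbour after their values were seen. Alternatives were the window, thresholds, single lists, equal list lengths and listed starts.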

Additional observations from a re-analysis of the deposited data

How the results depend on the processing

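No paired analysis was possible because inputs, the only samples with the same replicate numbers, entered no comparison and no test was made. Under each change of rule tried, and with promoters of 10 CG or more (added after seeing the data), the occupied counts stayed within 1.5 times those reported. Only losses could pass this limit, because even counts of all 49 and all 29 members would lie within it. Over rules that used both lists and all 78 members, the large subunit count was lowest at 28 (500 bp) and highest at 41 (5 kb). That of the small subunit was lowest at 21 (fold of 5 or more) and highest at 24 (5 kb). At listed starts 31 of 43 and 20 of 26 were occupied. Over the single lists the large subunit ran from 36 to 41 and the small from 23 to 27. The 500 bp window lost Mrpl2, Mrpl14, Mrpl20, Mrpl23, Mrpl40, Mrpl45, Mrpl48 and Mrpl51, and a fold of 5 or more lost Mrpl27, Mrpl28, Mrpl49, Mrpl55, Mrps18a and Mrps33. A −log10 q of 5 or more ended the calls of Mrpl28, Mrpl55 and Mrps18a, and equal list lengths those of Mrpl49 and Mrps33. The 2 kb window added Mrpl4, Mrpl18, Mrpl22 and Mrpl34. Median folds moved by less than the spread between the lists when the nearest peak was taken in place of the highest or the window was 500 bp or 2 kb; the large subunit median in replicate 2 ran from 8.44 to 10.3.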

Other observations

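The RNA of the mitochondrial ribosome comes from the mitochondrial genome, which lies outside the genes compared above. Replicate 2 had 3 peaks on it and replicate 1 had 0. Their folds were 1.87, 1.94 and 2.57 over backgrounds of 43.9, 35.7 and 28.2 fragments. The summits lay in ND5 and ND6, genes of complex I subunits, and at position 15487 outside any gene of the table, so none lay in a ribosomal RNA gene.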
